A study of Bos taurus with 10 samples.

Results

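Embryos from in vitro fertilization (IVF, in which oocytes meet sperm outside the animal) were compared with heart and muscle of cattle by array profiles of total RNA. The comparison used 5 of the 10 arrays of the series, chosen by their titles: 3 titled as IVF embryo, 1 as heart and 1 as muscle. The other 5 arrays, 1 each of brain, kidney, liver, lung and spleen, served for normalization and for a side-by-side look at the same genes. All RNA came from cattle but was hybridised to an array made for human genes. Thus each bovine transcript was read by probe sets (groups of short probes for 1 transcript) designed on a human gene, and genes carry human symbols here. The embryo RNA is labelled as a pool, with no number, stage or sex of embryos. The labels leave unsaid if these are 3 pools or 1, so the spread among embryo arrays may be technical only. The series title calls the tissues adult, and no breed, treatment, sex or age is given for either tissue. Heart and muscle had 1 array each, and the muscle is not named by type.

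Striated muscle contracts when calcium released from the sarcoplasmic reticulum binds troponin C and lets myosin of the thick filament pull on actin of the thin filament. Heart and skeletal muscle build this machine partly from shared genes and partly from isoforms of their own. Its cells have mostly left the cell cycle, and creatine kinase, glycolysis and mitochondria supply their ATP. An early mammalian embryo has no contractile cells. It consists of dividing cells, the outermost of which form the trophectoderm, a simple epithelium with keratins 8 and 18 that pumps fluid into the blastocyst cavity.

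Intensities were present for 10186 probe sets other than manufacturer's controls. Median deposited intensities were 124, 160 and 221 on the embryo arrays, 110 in heart and 153 in muscle, and the small number of arrays limits how precise any value is. After quantile normalization, which gives every array the same distribution, the embryo arrays correlated with each other at Spearman rho between 0.831 and 0.944 across probe sets. Heart and muscle correlated at 0.671, and the embryo arrays with either tissue at 0.401 to 0.510. The third embryo array stood apart from the other embryo arrays, closer to muscle (0.492) than to heart (0.401), while the first and second were closer to heart (0.510 and 0.472) than to muscle (0.426 and 0.405). By brightness, 93 probe sets (0.913% of those analysed) were above the 75th percentile on the third embryo array and muscle and below the median on the first and second and heart. For each of the other 5 pairs of an embryo and a tissue array the same count was 0 or 1. TLN2, a talin of muscle, had 313, 289 and 1529 in embryos, 239 in heart and 1497 in muscle, and CCNE2, cyclin E2, had 92.2, 115, 577, 47.9 and 664 in the same order. TLN2 and CCNE2 were singled out after their values were seen, and what the third embryo array shares with muscle was not tested. Counts without that array, and against heart alone, are given with the totals. The ratio of 5′ to 3′ signal of ACTB, a control for RNA integrity, was 0.566 to 0.728 in embryos, 2.65 in heart and 1.52 in muscle. The same ratio for GAPDH was 0.461 to 0.488 in embryos, 0.328 in heart and 0.447 in muscle. The ACTB ratio was thus higher in both tissues than in embryos, and the GAPDH ratio lower, in muscle by little. In the 5 other tissues the ACTB ratio was 0.311 to 0.838 and the GAPDH ratio 0.287 to 0.471. The 2 controls differ in direction, and the part of these ratios in the results below was not tested.

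The markers went with the labels. TNNC1, the calcium-binding troponin C of heart and slow muscle, had a normalized intensity of 4.72, 2.19 and 2.26 on the embryo arrays against 3133 in heart and 1998 in muscle. ACTA1, skeletal actin, had 1.61, 3.42 and 0.71 in embryos, 422 in heart and 1238 in muscle. KRT8, keratin 8, went the other way, with 1927, 1491 and 1278 in embryos, 15.3 in heart and 4.47 in muscle. None of the 3 genes overlapped between embryos and the 2 tissues. Such separation was common, as 35% of all probe sets tested lay above both tissues on every embryo array and 25% below. In bulk RNA, fewer cells of a type and less RNA per cell cannot be told apart. Not every marker of a dividing epithelium differed. CDH1, E-cadherin, had 386, 219 and 190 in embryos against 329 in heart and 226 in muscle, and GATA3, a trophectoderm transcription factor, had 181, 167 and 228 against 88.0 and 174. The muscle array was bright for fast skeletal genes and the heart array for cardiac ones, as described further on.

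A probe set was tested if 2 or more of the 5 arrays held it above their own median. Of 6567 such probe sets, 1368 (20.8%) were higher and 912 (13.9%) lower in embryos than in heart and muscle (limma, Benjamini-Hochberg adjusted p under 0.05). All 3 embryo values lay above both tissues for 2296 (35%) and below both for 1640 (25%). Counted as genes, with the brightest probe set for each, 882 of 4578 (19.3%) were higher and 639 (14%) lower. At a difference shown to exceed 2-fold, 203 probe sets (3.09%) were higher and 131 (1.99%) lower. Against heart alone 17.2% were higher and 13.2% lower, and against muscle alone 21% and 13.1%, with the spread taken from the embryo arrays. Differences are on the scale of log2(intensity + 71), which understates the change of dim genes. The median difference over all probe sets tested was 0.08. Without any scaling of the arrays it was 0.26 and 1367 probe sets were higher against 532 lower, so that 72.0% of the calls were higher in place of 60%. Without the first embryo array the counts were 803 and 579, and without the second 662 and 445. Leaving out the third gave 1142 and 644. If the embryo arrays are repeats of 1 RNA and count as 1 sample, limma called 0 probe sets, with 1287 (19.6%) at an unadjusted p under 0.05 and a smallest adjusted p of 0.0950. Counted separately, 3044 (46.4%) had an unadjusted p under 0.05. Every p below thus assumes separate embryo samples.

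The thin filament had the lowest median of the lists and held the largest fall of any gene, that of TNNC1. It fell by 5.12 ± 0.22 (log2, SE; adjusted p = 0.000292, limma, 3 embryo arrays against 2 tissue arrays). TPM1, tropomyosin 1, which blocks myosin's sites on actin, had 33.2, 44.1 and 28.1 in embryos, 1638 in heart and 1425 in muscle, a difference of -3.92 ± 0.17. A second TPM1 probe set differed by -4.03, while another had 329, 358 and 282 in embryos, 157 in heart and 144 in muscle, a difference of 0.83. Probe sets of a gene with several transcripts can thus point opposite ways. ACTA1 differed by -3.46 ± 0.40 and TPM2, tropomyosin 2, by -3.30 ± 0.45. TPM2 was at 3.48, 0.62 and 0.71 in embryos, 341 in heart and 1167 in muscle. TMOD1, tropomodulin 1, which caps the pointed ends of actin filaments in many cell types, was the exception, with 994, 704 and 589 in embryos against 269 and 228 (1.36 ± 0.25, adjusted p = 0.00887). Its other probe set was lower in embryos by 1.08, without passing the threshold.

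The filter admitted 1231 probe sets above the median on embryo arrays alone and 715 in heart and muscle alone. It left out 1026 above the median in only heart or only muscle and on no embryo array. Members bright in embryos or in both tissues are thus favoured. Lists are therefore counted here over every member with an intensity, in a limma fit without a filter. Without the filter 1337 probe sets were higher and 966 lower. In that fit 12.3% of 6732 genes were higher in embryos and 9.6% lower, with a median of 0.00. Of 13 thin filament genes with an intensity, 4 were lower and 1 higher (TMOD1), with a median of -2.10. Of 15 thick filament genes 5 were lower and 0 higher, with a median of -1.98. Of 24 genes of the Z-disc and titin 9 were lower and 0 higher, with a median of -1.28.

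MYH7, the slow and cardiac beta myosin heavy chain, had 20.7, 28.7 and 29.5 in embryos, 5534 in heart and 1638 in muscle (-4.99 ± 0.48, adjusted p = 0.00116). MYL2, the ventricular and slow regulatory light chain, had 25.3, 14.3 and 16.6 in embryos against 1103 and 603 (-3.31 ± 0.26). MYH7 and MYL2 were dim on every embryo array. MYL4, the atrial and embryonic light chain, was not, with 137, 228 and 168 in embryos, 866 in heart and 355 in muscle. Its difference of -1.36 ± 0.36 passed (adjusted p = 0.0298) but not without any 1 of the embryo arrays or without heart, where it was -0.79, nor without the filter. Other MYL4 probe sets differed by -1.69 and -1.68, which passed, and by -0.35, which did not. MYL4 is named after its values were seen. MYL5, a further regulatory light chain, differed by -3.72 ± 0.30, from 1.44 to 7.70 in embryos against 1329 in heart and 634 in muscle. MYH6, the atrial alpha chain, and MYH4, the fast IIb chain, differed by -3.65 ± 0.22 and -2.58 ± 0.21. MYH6 was bright in muscle as well (1037 in heart, 699 in muscle) and MYH4 in heart as well (356 and 365). Myosin heavy chains are near copies of each other, so which of them these probe sets read is uncertain. MYL3, the slow essential light chain, had 76.9, 118 and 83.4 in embryos, 1047 in heart and 202 in muscle. Its difference of -1.76 ± 0.56 missed the threshold (adjusted p = 0.0537), passed in 1 of the 5 fits that left out an array, and ran from -2.78 without muscle to -0.74 without heart.

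**Figure D1:**
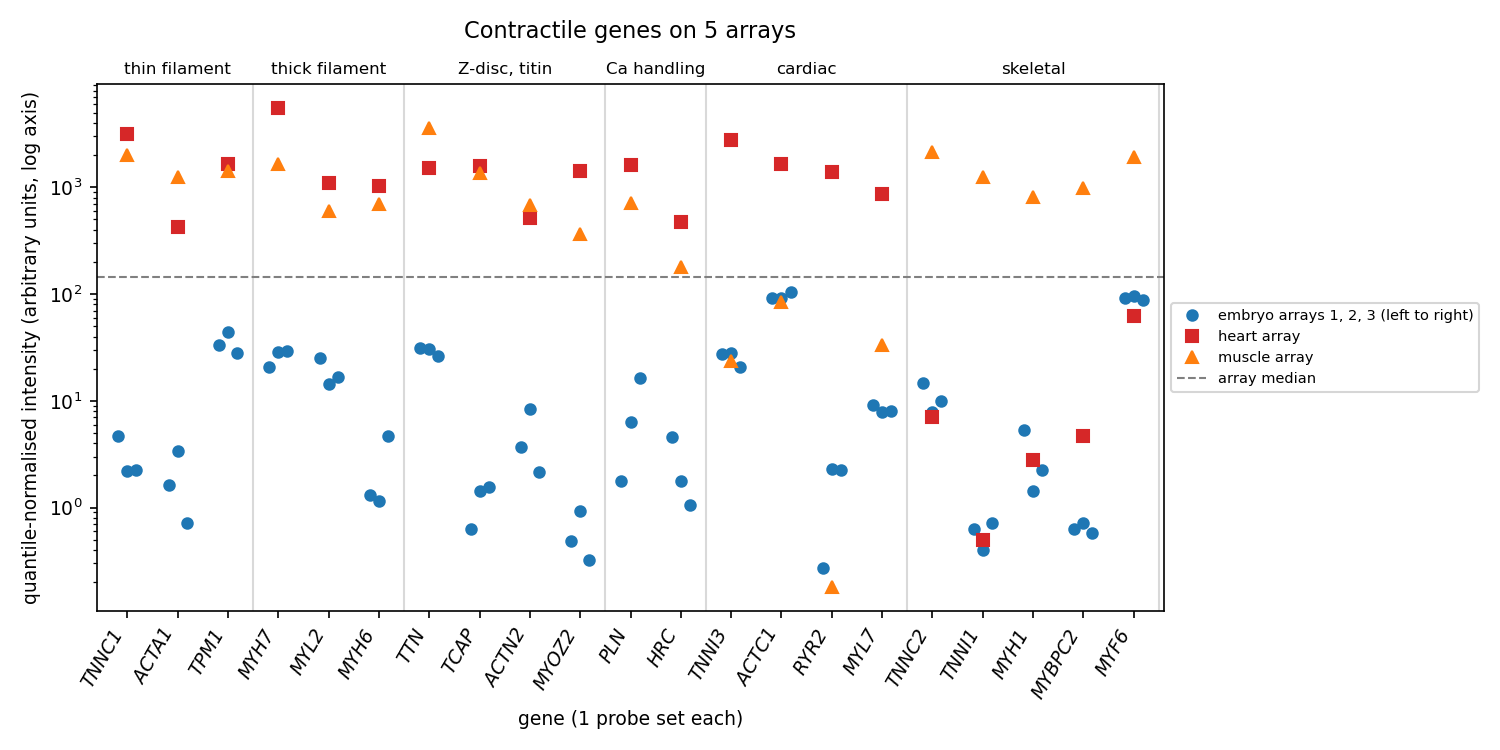
Quantile-normalized intensity (log axis) of muscle genes grouped by role, 1 probe set each. Blue points are the 3 embryo arrays, red squares heart, orange triangles muscle, and the dashed line is the array median. TNNC1 lies between 2.19 and 4.72 in embryos and at 1998 or above in both tissues, whereas TNNI3 is bright in heart alone and TNNC2 in muscle alone.

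TTN, titin, the spring that spans the sarcomere from Z-disc to M-line, had 31.1, 30.5 and 26.4 in embryos, 1509 in heart and 3608 in muscle (-4.59 ± 0.35, adjusted p = 0.000615). TCAP, telethonin, which joins titin at the Z-disc, was close to 0 in embryos, at 0.63, 1.44 and 1.56, against 1581 and 1357 (-4.41 ± 0.16). The Z-disc crosslinker ACTN2 and the calcineurin-binding MYOZ2 followed the same order. ACTN2 had 3.67, 8.34 and 2.17 in embryos, 516 in heart and 682 in muscle (-3.13 ± 0.21). MYOZ2 had 0.49, 0.92 and 0.32 in embryos, 1438 in heart and 363 in muscle (-3.50 ± 0.50). CRYAB, a small heat shock protein of the Z-disc, differed by -3.58 ± 0.28. DES, desmin, the muscle intermediate filament, did not follow. It had 229, 204 and 235 in embryos, 159 in heart and 125 in muscle, a difference of 0.47 that missed the threshold (adjusted p = 0.0741).

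Among calcium-handling genes PLN, phospholamban, which restrains the calcium pump, had 1.78, 6.29 and 16.3 in embryos, 1614 in heart and 708 in muscle (-3.86 ± 0.33). HRC, a calcium-binding protein of the sarcoplasmic reticulum, had 4.57, 1.79 and 1.05 against 472 and 178 (-2.32 ± 0.36). ATP2A2, the pump itself, was bright in embryos too, at 464, 468 and 359, and higher still in heart (2076) and muscle (1927), a difference of -2.05 ± 0.19. Its other probe sets ran the opposite way, differing by 1.95 and 1.93, so no direction holds for ATP2A2 as a gene. Of 23 calcium-handling and excitation genes 5 were lower and 1 higher, with a median of -0.73. The one higher was FKBP1B, a protein bound to ryanodine receptors, with 74.2, 117 and 68.5 in embryos against 0.38 and 0.71. FKBP1B was singled out after its values were seen.

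At the muscle cell membrane, DMD, dystrophin, had 21.1, 19.5 and 12.3 in embryos, 719 in heart and 644 in muscle (-3.09 ± 0.17). LAMA2, the laminin chain of the muscle basement membrane, differed by -3.23 ± 0.29, with further probe sets at -1.53 and -2.01 and 1 that differed by 0.00. ITGA7, the laminin receptor of muscle, was at 2.91 to 3.27 in embryos against 451 and 162 (-2.23 ± 0.37). CAV3, muscle caveolin, went against its name, with 254, 284 and 287 in embryos, 90.9 in heart and 91.3 in muscle (1.09 ± 0.16, adjusted p = 0.00379). Of the 14 members of the sarcolemma list 5 were lower and 1, CAV3, was higher, with a median of -0.80.

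Of 12 transcription factors of muscle with an intensity, MEF2C alone was called, with 29.9, 26.8 and 21.9 in embryos, 211 in heart and 267 in muscle (-1.67 ± 0.22, adjusted p = 0.00295). That is 8.33% lower, close to the background of 9.6% over all genes, so the count sets this list apart from other genes in neither direction. The median of the 12 was -0.19. MEF2A had 156, 142 and 75.9 in embryos, 213 in heart and 179 in muscle, and SRF had 268, 309 and 203 against 210 and 192. Neither passed the threshold, although every MEF2A value lay below both tissues, and the MEF2A difference of -0.47 was -0.27 without heart. A second MEF2A probe set, below the filter, had 25.9, 21.1 and 11.9 in embryos against 160 and 140. MYF6, the myogenic factor of mature skeletal muscle, stood apart as a muscle-only gene, with 92.0, 96.6 and 88.1 in embryos, 62.0 in heart and 1912 in muscle.

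Many isoforms were bright in only 1 of the 2 tissues, and most of these fell below the filter and are described without a test. TNNI3, cardiac troponin I, had 2773 in heart against 23.6 in muscle and 27.2, 28.2 and 20.9 in embryos. RYR2, the cardiac calcium release channel, had 1392 in heart, 0.18 in muscle and at most 2.32 in embryos. For both genes the embryo arrays sat with muscle. TNNC2, fast skeletal troponin C, had 2157 in muscle and 7.01 in heart, and TNNI1 and TNNI2, the slow and fast skeletal troponins I, had 1241 and 1043 in muscle against 0.50 and 10.4 in heart. MYH1 and MYH2, the fast IIx and IIa myosins, had 818 and 836 in muscle against 2.78 and 5.36 in heart. ACTC1, cardiac actin, was at 1658 in heart, 84.9 in muscle and 91.5 to 104 in embryos. Over 26 skeletal isoforms with an intensity, 18 exceeded the 75th percentile in muscle, 2 in heart and 1 on any embryo array, and 21 were below the offset of 71 on all 3 embryo arrays. Over 14 cardiac isoforms the 75th percentile was passed by 11 in heart, 6 in muscle and 1 on any embryo array. Cardiac troponin T (TNNT2) was not analysed here.

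**Figure D2:**
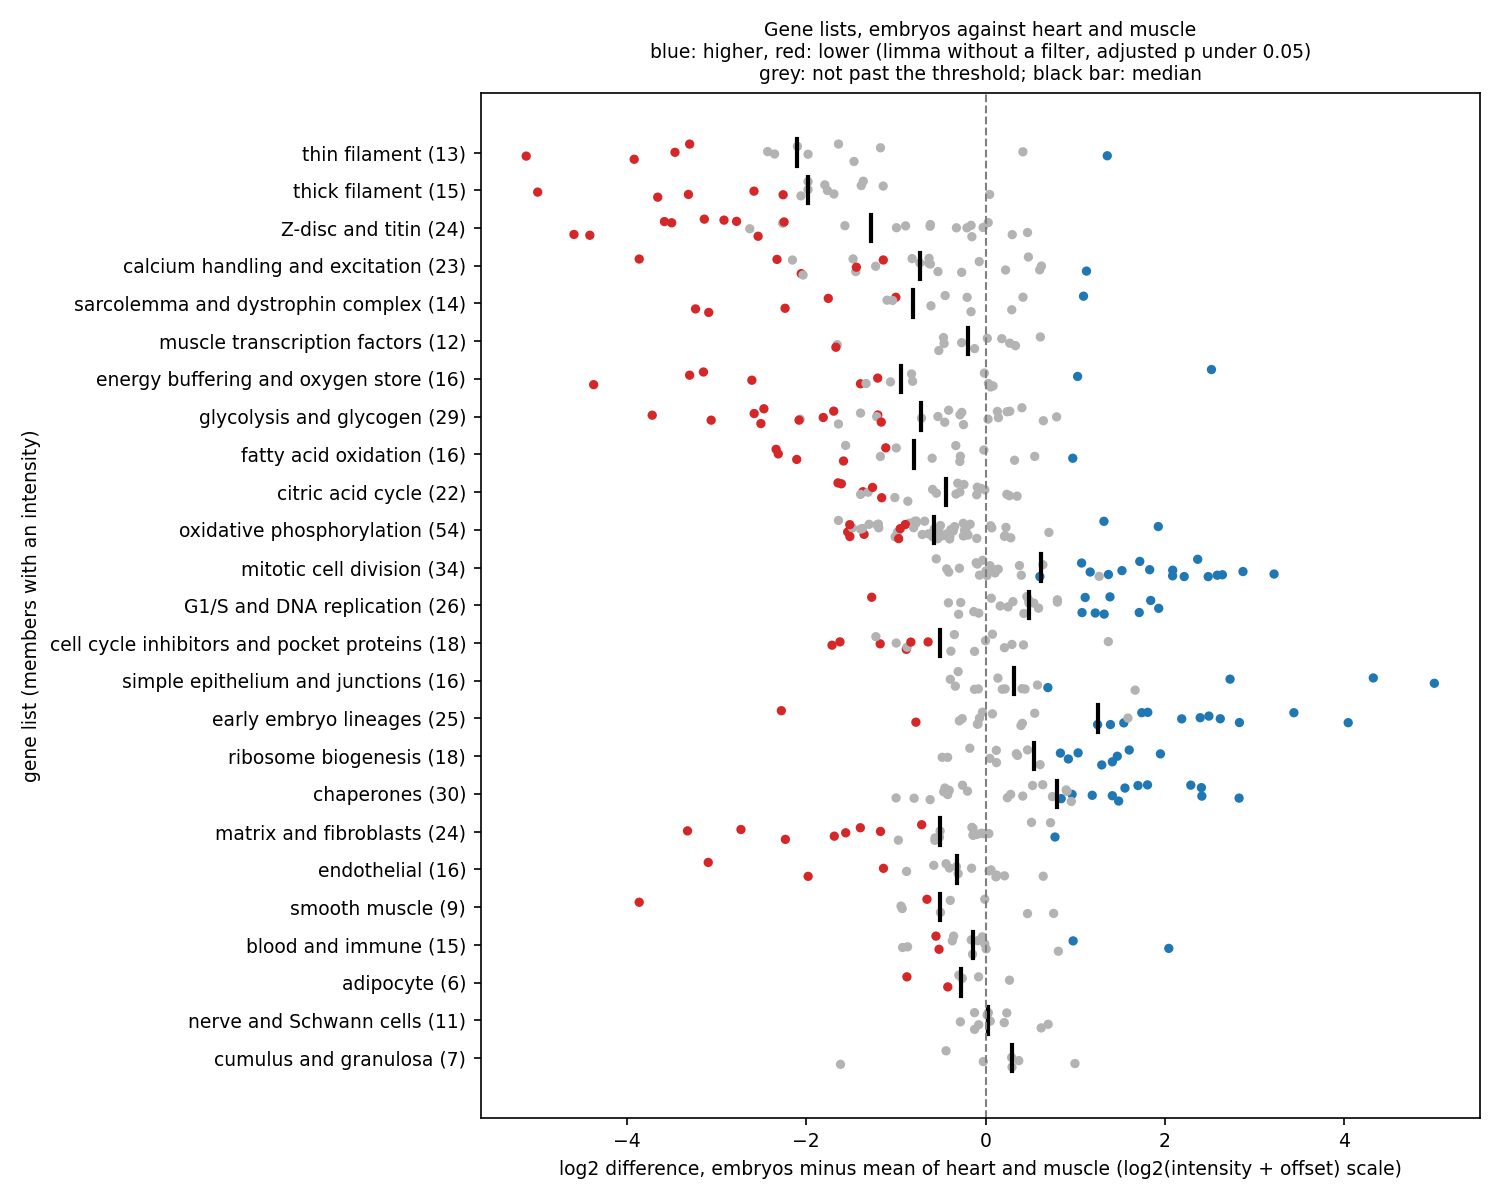
Difference of each gene on the log2(intensity + offset) scale, embryos minus the mean of heart and muscle, for every list member with an intensity (number in brackets). Blue genes were higher and red lower in limma without a filter, grey ones did not pass, and black bars are list medians, which run from -2.10 for the thin filament to 1.25 for early embryo lineages.

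Muscle's ATP supply was the next group of falls. SLC25A4, the heart and muscle form of the mitochondrial ADP/ATP carrier, had 95.1, 54.5 and 104 in embryos, 3608 in heart and 2677 in muscle (-4.37 ± 0.24, adjusted p = 0.000306). SLC25A5, the carrier form of proliferating cells, did the reverse, with 433, 538 and 590 in embryos, 34.6 in heart and 28.6 in muscle (2.52 ± 0.19, adjusted p = 0.000563). The pair thus changed in opposite directions, with no overlap in either. Among the creatine kinases, which buffer ATP, the muscle forms were dim in embryos. The mitochondrial CKMT2 had 18.4, 40.7 and 35.7 against 853 and 812 (-3.14 ± 0.17), and the cytosolic CKM had 17.8, 14.5 and 5.79 against 450 and 425 (-2.60 ± 0.20). CKB, the brain form, named after its values were seen, went the other way, with 275, 242 and 136 in embryos, 82.7 in heart and 53.6 in muscle. Its difference of 1.03 ± 0.27 passed (adjusted p = 0.0292) but not without the first embryo array, the second, heart or muscle. MB, myoglobin, the oxygen store, was not dim in embryos. It had 279, 182 and 159 there, 544 in heart and 572 in muscle, a difference of -1.20 ± 0.23 (adjusted p = 0.0103) that missed the threshold without the second embryo array (0.0588). FABP3, the heart fatty acid carrier, had 119, 172 and 125 in embryos, 386 in heart and 227 in muscle, a difference of -0.82 ± 0.24 (-0.52 without heart) that was past the threshold (adjusted p = 0.0404) but lost it without any 1 embryo array or heart, on values as deposited and without the filter. Of 16 energy-buffering and oxygen-store genes 6 were lower and 2 higher, with a median of -0.94.

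In glycolysis ENO3, muscle enolase, had 21.5, 8.05 and 13.6 in embryos, 780 in heart and 1399 in muscle (-3.72 ± 0.26). PFKM, the muscle phosphofructokinase, which commits sugar to glycolysis, had 166, 136 and 155 against 884 and 1788 (-2.58 ± 0.30). GYG1, glycogenin, the primer of glycogen, differed by -2.47 ± 0.18. ENO1, the enolase of most other tissues, also appeared lower (84.7 to 89.9 against 952 and 1611, -3.06 ± 0.25), but its other probe sets differed by 0.07 and 0.13, and the enolases are near copies. Of 29 glycolysis and glycogen genes 10 were lower and 0 higher, with a median of -0.71.

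Some genes of fatty acid uptake and oxidation fell. LPL, the lipase that releases fatty acids from lipoproteins, had 34.6, 34.2 and 36.4 in embryos, 1226 in heart and 768 in muscle (-3.30 ± 0.22). A dimmer LPL probe set, below the filter, had 110, 143 and 130 against 118 and 115, a difference of 0.08. ACADM and ACADVL, dehydrogenases of the oxidation cycle, differed by -2.31 ± 0.30 and -1.58 ± 0.22, and ACSL1, which activates fatty acids, by -2.10 ± 0.27, though another ACSL1 probe set, below the filter, differed by 0.18. Of 16 genes of fatty acid oxidation 5 were lower and 1 higher. In the citric acid cycle, DLST and OGDH, subunits of the 2-oxoglutarate dehydrogenase complex, differed by -1.64 ± 0.23 and -1.16 ± 0.20. Here 5 of 22 genes were lower and 0 higher. Oxidative phosphorylation, the largest of these lists, had 7 of 54 genes lower and 2 higher, a share close to the background of 9.6%, with a median of -0.57. The 54 genes summed to 23370 to 25122 in embryos, 51133 in heart and 27708 in muscle. NDUFB11, a complex I subunit, had 219, 140 and 215 in embryos, 902 in heart and 511 in muscle (-1.54 ± 0.28).

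In the other direction the largest rise was SFN, the epithelial 14-3-3 sigma, with 6224, 8428 and 6224 in embryos, 139 in heart and 154 in muscle. It rose by 5.0 ± 0.21 (adjusted p = 0.000292), 32.1-fold on the offset scale, and its other probe sets by 4.02 and 3.40. KRT8 rose by 4.32 ± 0.22. KRT18, its partner keratin, had 463, 365 and 386 in embryos and less than 1 in both tissues (2.73 ± 0.17). Of 16 genes of the epithelium list 4 were higher and 0 lower, with a median of 0.31. PERP, a junction protein named after its values were seen, did not pass. It had 648, 708 and 382 in embryos, 428 in heart and 8.60 in muscle, a difference of 1.67 (adjusted p = 0.131) that was 0.34 without muscle and 2.99 without heart, where it passed (0.00413).

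Of 25 embryo lineage genes 12 were higher and 2 lower, with a median of 1.25. The sodium pump's beta subunits, counted in this list because the pump fills the blastocyst cavity, went opposite ways. ATP1B3 had 3779, 4181 and 4181 in embryos against 224 and 140 (4.04 ± 0.21). ATP1B1, named after its values were seen, had 218, 291 and 205 against 1539 and 1301 (-2.28 ± 0.20, adjusted p = 0.000861), and its other probe set differed by -2.23. SOX2, the pluripotency factor of the inner cell mass, had 580, 802 and 990 in embryos, 5.77 in heart and 8.20 in muscle (3.44 ± 0.24). TFAP2C, a trophectoderm transcription factor, had 339, 353 and 365 against 1.35 and 7.42 (2.49 ± 0.16), although its other probe set had 259, 275 and 28.5 in embryos, a difference of 1.12 that did not pass. KLF5, a factor of both lineages, had 487, 478 and 476 against 11.8 and 1.60 (2.83 ± 0.16). The KLF5 values lay close together among embryo arrays, but its other probe set had 241, 233 and 107 (1.38). DDX4, the germ cell helicase known as VASA, had 631, 362 and 269 in embryos against 10.3 and 1.01 (2.62 ± 0.32). DNMT3B, a DNA methyltransferase that sets new marks, had 231, 246 and 240 against 9.15 and 26.5.

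Of 34 mitosis genes with an intensity, 16 were higher and 0 lower, with a median of 0.62. MELK, a kinase of dividing cells, had 623, 685 and 484 in embryos and below 1 in heart and muscle (3.22 ± 0.19). CDC25A, the phosphatase that activates cyclin-dependent kinases, had 382, 347 and 339 in embryos against 0.25 and 0.18 (2.58 ± 0.17). Both were thus at the bottom of the scale in heart and muscle. They were also dim in the 5 other adult tissues, MELK at 0.33 to 55.6 and CDC25A at 0.28 to 13.7. CCNB1, cyclin B1, had 249, 290 and 456 against 15.8 and 11.97 (2.21 ± 0.25), and CCNB2, cyclin B2, had 932, 1133 and 923 against 134 and 70.8 (2.64 ± 0.23). CKS2, a partner of cyclin-dependent kinases, and KIF20A, a kinesin of cell separation, rose by 2.87 ± 0.20 and 2.48 ± 0.22. MKI67, the usual proliferation antigen, did not pass the threshold. It had 351.5, 346 and 234 in embryos, 262 in heart and 175 in muscle, so that the third embryo array overlapped heart. The difference of 0.40 (adjusted p = 0.238) was 0.18 without muscle. Another MKI67 probe set had 184, 292 and 244 in embryos, 152.5 in heart and 108 in muscle. These did not overlap, but the difference of 0.62 did not pass either. CDK1 was not analysed here.

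Of 26 genes of the G1/S transition and DNA replication 8 were higher and 1 lower, with a median of 0.48. PCNA, the sliding clamp of DNA polymerase, had 346, 374 and 293 in embryos against 23.8 and 49.3 (1.93 ± 0.19). CHEK1, the replication checkpoint kinase, had 369, 311 and 158 against 31.7 and 15.4 (1.84 ± 0.31). RFC4, which loads the clamp, and PRIM1, primase, rose by 1.71 ± 0.22 and 1.32 ± 0.25. CCND2, cyclin D2, had 340, 367 and 197 in embryos, 207 in heart and 0.48 in muscle, and did not pass (1.37, adjusted p = 0.111). The CCND2 difference was 2.35 without heart, which passed (adjusted p = 0.00701), and 0.39 without muscle. Another CCND2 probe set had 51.9, 80.5 and 270 in embryos, 35.5 in heart and 252 in muscle.

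**Figure D3:**
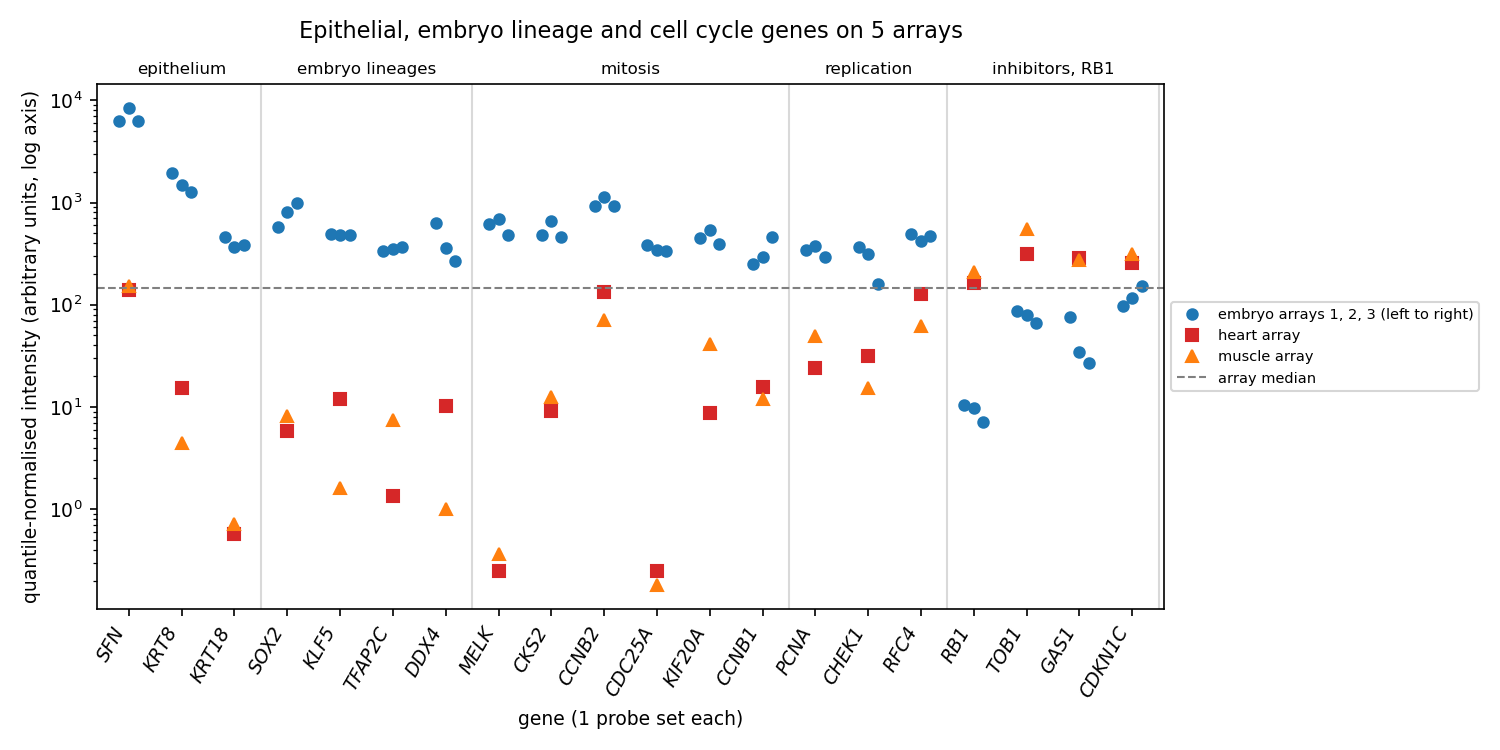
Quantile-normalized intensity (log axis) of genes of epithelium, embryo lineages, mitosis, DNA replication and growth restraint, with the same symbols as in the plot of muscle genes. MELK and CDC25A lie at 339 or above on every embryo array and below 1 in heart and muscle, while RB1 lies at 7.07 to 10.5 in embryos and at 162 or above in both tissues.

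Genes that restrain the cycle fell or did not pass. Of 18 inhibitors and pocket proteins 6 were lower and 0 higher, with a median of -0.51. RB1, the retinoblastoma protein that holds cells before S phase, had 10.5, 9.83 and 7.07 in embryos, 162 in heart and 209 in muscle (-1.67 ± 0.24, adjusted p = 0.00409). TOB1, an antiproliferative protein, had 87.7, 80.1 and 66.8 against 311 and 551 (-1.71 ± 0.24), and GAS1, a gene of arrested cells, had 75.8, 34.4 and 26.7 against 289 and 276 (-1.62 ± 0.25). CDKN1C, the imprinted inhibitor p57, was 97.2, 117 and 151 in embryos against 256 and 312. Its difference of -0.88 ± 0.19 was past the threshold (adjusted p = 0.0160) but not without the first embryo array, the second or muscle, nor on values as deposited (0.166). A further CDKN1C probe set, below the filter, differed by -0.05. CDKN1B, the inhibitor p27, did not pass, with 120, 143 and 112 in embryos against 157 and 215.

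Genes of ribosome building and protein folding followed the dividing-cell genes. Of 18 ribosome biogenesis genes 8 were higher and 0 lower, with a median of 0.54. FBL, the nucleolar RNA methyltransferase fibrillarin, had 256, 298 and 168 in embryos against 3.63 and 13.5 (1.95 ± 0.25), and NCL, nucleolin, had 360, 348 and 265 against 77.9 and 64.3 (1.47 ± 0.19). Of 30 chaperones 12 were higher and 0 lower, with a median of 0.79. CCT4 and CCT6A, subunits of the chaperonin that folds actin and tubulin, rose by 2.29 ± 0.26 and 2.41 ± 0.30. CCT4 had 1372, 1268 and 1123 in embryos, 276 in heart and 140 in muscle. DNAJA1, a partner of HSP70, had 1418, 1482 and 1076 against 263 and 132 (2.41 ± 0.27).

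The 5 other adult tissues show how far these differences belong to heart and muscle. In a second limma test, heart and muscle against brain, kidney, liver, lung and spleen, without embryo arrays, 209 of the 6567 probe sets (3.18%) were higher and 33 (0.503%) lower in heart and muscle. The filter behind these probe sets used embryo, heart and muscle arrays only. It admitted 715 above the median in heart and muscle but on no embryo array, and none bright in the 5 other tissues alone. The counts of 209 and 33 thus cannot be weighed against each other. Both tests share the heart and muscle arrays, so their values are given side by side only. TNNC1 was at 0.33 to 3.67 in the 5 tissues, differing by 5.15 from heart and muscle, next to the -5.12 in embryos. TTN had 7.17 to 26.0 there (4.80), TCAP 1.21 to 4.94 (4.39) and MYH7 1.21 to 21.1 (5.20), so these genes were dim in the other tissues too. LPL and DMD were intermediate, at 89.2 to 389 and 84.8 to 292 in the 5 tissues, above every embryo value. RB1 was at 80.3 to 298 there and differed by 0.18 between heart and muscle and the others (adjusted p = 0.840). On the side of the rises, SFN was at 218 to 571 in the 5 tissues and KRT8 at 2.21 to 229, both below every embryo array. TIAM1, an activator of the GTPase Rac, and FGFR3, a fibroblast growth factor receptor, reached 1173 and 887 in at least 1 other tissue, next to 1072 to 1162 and 1064 to 1241 in embryos and at most 36.6 and 47.3 in heart and muscle. The count of 242 calls fell to 145 without muscle, 143 without kidney, 145 without lung and 122 without spleen. Without heart it was 337.

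**Figure D4:**
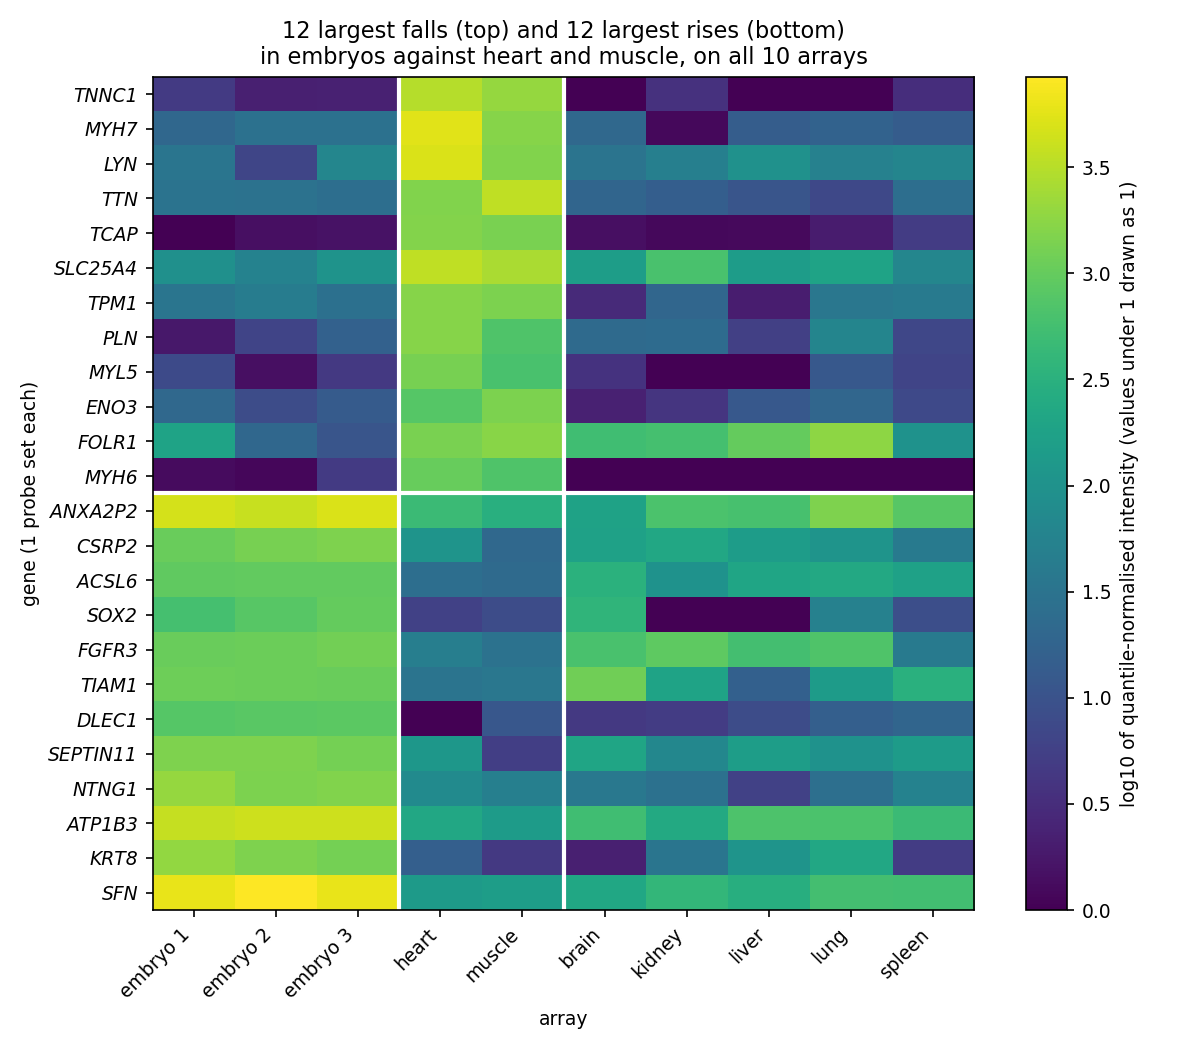
Heat map of the 12 largest falls (top) and 12 largest rises (bottom) on all 10 arrays, as log10 of the quantile-normalized intensity, with values under 1 drawn as 1. Genes such as TNNC1, TTN and TCAP are bright in heart and muscle alone, whereas FOLR1 reaches 1843 and TIAM1 1173 in other tissues.

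By brightness alone, with no test, 67 probe sets of 53 genes (0.658% of those analysed) were above the 75th percentile in both heart and muscle and below the median on the other 8 arrays. The brightest were TNNC1, MYH7, LYN, TTN and TPM1. LYN, a kinase known from blood cells, had 33.9, 6.63 and 62.8 in embryos, 5038 in heart and 1539 in muscle (-4.80 ± 0.51), whereas its other probe set differed by -0.17. ANK1, ankyrin 1, whose short muscle form anchors the sarcoplasmic reticulum, had 24.1, 16.1 and 11.2 in embryos, 982 in heart and 999 in muscle (-3.59 ± 0.16). A second ANK1 probe set differed by -3.40, and the other 4 by -0.24 to -0.35 without passing. MAP3K5, a stress-activated kinase, had 45.6 to 58.8 in embryos against 1101 and 854 (-3.07 ± 0.18). Counting only the embryos as the dim side gave 199 probe sets of 158 genes (1.95%), so most of those bright in heart and muscle and dim in embryos were not dim in all other tissues. In the mirror class, 304 probe sets of 239 genes (2.98%) were bright on 3 embryo arrays and dim in heart and muscle, and 67 of 50 genes were dim on all 7 tissue arrays. Its brightest members, after SFN, were NTNG1, an axon guidance protein, SEPTIN11, a cytoskeletal GTPase, and KRT8. NTNG1 had 1998, 1425 and 1503 in embryos, 75.7 in heart and 49.3 in muscle. For SEPTIN11 another probe set differed by -0.25.

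Heart and muscle also hold fibroblasts, vessels, blood and nerve, and their markers were counted in the same way. The summed intensity of 24 matrix and fibroblast genes was 4549 to 4852 in embryos, 9443 in heart and 9459 in muscle, with 8 lower and 1 higher in embryos. COL3A1, the collagen of soft connective tissue, had 30.7, 48.7 and 40.8 in embryos, 1021 in heart and 1054 in muscle (-3.32 ± 0.16). Its other probe sets differed by -2.46, which passed, by 0.08, which did not, and by -0.49, below the filter. The first was also at 318 to 2035 in the 5 other tissues. DCN, decorin, had 48.7, 43.1 and 46.1 against 704 and 701 (-2.73 ± 0.15), with a further probe set that went the other way by 1.01. The sum of 16 endothelial genes was 1913 to 2240 in embryos, 5037 in heart and 3278 in muscle, with 3 lower and 0 higher. AQP1, the water channel of capillaries, had 66.6, 57.2 and 57.3 against 2217 and 476, a difference of -3.09 ± 0.56 that was -2.06 without heart. The 9 smooth muscle genes summed to 1047 to 1107, 3294 and 1526. PLN, described above among calcium-handling genes, is counted in this list too. It gave 1614 of the sum in heart, 708 in muscle and at most 16.3 in embryos, so these sums do not describe smooth muscle alone. The sums for 15 blood and immune genes were 1506 to 1687, 1371 and 1603. Of these, 2 were lower and 2 higher (13.3% each), next to 9.6% and 12.3% over all genes. HBB, a haemoglobin chain, gave 622, 413 and 508 of the embryo sums, 77.2 in heart and 62.3 in muscle (2.04 ± 0.21). Its other probe sets differed by 1.62 and, below the filter, by -0.91, so no direction holds for HBB as a gene. The sums for 11 nerve and Schwann cell genes were 993 to 1236, 857 and 865, with 0 called either way. The 6 adipocyte genes summed to 963 to 1027 in embryos, 1252 in heart and 1236 in muscle. Cumulus and granulosa genes, which could come with embryos, summed over 7 genes to 831 to 1181 in embryos, 1344 in heart and 883 in muscle, with 0 called. Among them CYP19A1, the aromatase of granulosa cells, was at 79.9, 118 and 305 in embryos, 62.3 in heart and 171 in muscle. STAR, which brings cholesterol to steroid synthesis, was at 0.91, 0.18 and 140 in embryos and below the offset in heart and muscle. The third embryo array was thus the highest embryo array for both. CYP19A1 and STAR were singled out after their values were seen. TNFAIP6 and HSD3B1, of the same list, had their lowest embryo values on the third array. TNFAIP6 had 248, 242 and 231 in embryos, and HSD3B1 had 263, 292 and 226. The part of these other cells in the differences was not tested.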

How the data were processed

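The values are linear array intensities as deposited by the authors, 1 for each probe set. Software and scaling: not given in the sources used here. From 22283 probe sets, 12064 were blank on every array and 33 were controls. The remaining 10186 were quantile normalized over all 10 arrays, whose trimmed means differed 1.90-fold, and tested as log2(deposited intensity, normalized, + 71), where 71 is the median of the arrays' 25th percentiles. Platform symbols name genes (8847 probe sets with 1 symbol, 479 with several, 860 with none), and the brightest tested probe set stands for each. Of 4578 genes, 94.2% are in the bovine RefSeq table. The test was limma 3.58.1 (R 4.3.3, eBayes with trend and robust), two-sided, on 3 residual degrees of freedom, 1 of them the difference between heart and muscle. Genes named are the 12 largest rises and falls, up to 5 of each list, a fixed set, and up to 10 bright on 1 side. Members and lists were chosen with earlier results of these data known. Probe sequences and genome coordinates were not used here.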

Additional observations from a re-analysis of the deposited data

How the results depend on the processing

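No paired analysis was possible because the labels link no embryo array to the heart or muscle array. None of the 119 named genes reversed under any alternative. Among them 17 lost their call without the first embryo array, 22 without the second and 12 without the third. Most named genes were picked for large differences, which favours keeping a call. Over all probe sets, 662 of the 1368 higher and 445 of the 912 lower calls were kept without the second embryo array. The count of probe sets higher in embryos (1368) was 869 with 1 probe set per gene, 203 at 2-fold and 0 with embryo arrays averaged, and 662 to 1377 with 1 array left out. The count lower (912) was 532 on values as deposited, 534 with a filter at the 75th percentile, 131 at 2-fold, 0 with averaged arrays, and 445 to 870 with 1 array left out. The 242 probe sets separating heart and muscle from 5 tissues became 154 with an offset of 1, 99 without a filter, and 122 to 337 with 1 array left out. MYL3 passed with an offset of 1 (adjusted p = 0.0426). Dim probe sets may reflect a poor match of bovine sequence to human probes, so a low value need not mean a low level, and near-identical paralogues cannot be told apart.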
